A study of Homo sapiens with 10 samples.

Results

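The comparison described here sets MOLT-4 cells after 6 h with the antibody MABL against MOLT-4 cells at 0 h. It rests on 4 of the 10 arrays of a time course, 2 for 6 h and 2 for 0 h, which were chosen by their labelled time. MOLT-4 is an established human T-cell acute lymphoblastic leukaemia line, and MABL is an antibody against CD47, a widely expressed surface receptor that SIRP alpha on phagocytes reads as a signal not to engulf the cell. The other 6 arrays (0.5 h, 1 h and 3 h) entered the fit to estimate the spread, and the 3 h arrays also served as a second comparison. Both groups are the same cell line, and the labels give both of them the same agents, MABL at 10 ug/mL and GAM, which they do not spell out, at 50 ug/mL. No cells kept for 6 h without the antibody were analysed here, so effects of MABL, of GAM, of culture time and of handling cannot be told apart. Nothing says that the arrays of 1 time were grown as separate cultures. The p-values then cover the spread between these samples alone, which may be technical, and the number of arrays limits the precision.

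Genes that respond to low oxygen form one of the best known groups of target genes in human cells. Hypoxia-inducible factor 1 (HIF-1) is a dimer of an alpha subunit, which is broken down in the presence of oxygen and iron, and a constant beta subunit, and it binds short DNA motifs near genes of glucose uptake, glycolysis, angiogenesis and mitochondrial turnover. BNIP3 and BNIP3L are such targets and mark mitochondria for autophagy, while DDIT4 restrains mTORC1, the kinase complex that drives growth. MYC, the transcription factor that pushes ribosome production, polyamine synthesis and the cell cycle in many leukaemias, stands on the growth side of the same metabolism.

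Levels are the square roots of the deposited scores, read as log2. This scale is a reading of the values that the authors do not state, and every size below depends on it. A change is the 6 h mean minus the 0 h mean of 2 arrays each, its SE comes from limma, and a gene was called at an adjusted p under 0.05 (Benjamini-Hochberg over all 4276 tested probe sets). Tested were the probe sets that reached a level of 5, a deposited score of 25, on at least 2 of the 10 arrays, and each of the 2819 genes among them is read by its brightest probe set. Where 1 group lies under 5, a floored change is given too, with all values under 5 set to 5, as a lower bound of the size.

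The arrays of 6 h correlated with each other at 0.991 over the tested probe sets and those of 0 h at 0.993, while a 6 h and a 0 h array correlated at 0.960 to 0.975. Of 18 markers of T-lineage leukaemia 13 were tested, and their brightest, CD3D, stood at 12.44 at 6 h and 12.35 at 0 h. The summed level of the 18 was 119.6 and 119.1 on the 6 h arrays and 123.1 and 122.2 on the 0 h arrays, with CD7, CD4, CD2, RAG1 and LMO2 not tested. No marker of B cells, myeloid cells, erythroid cells or NK cells passed the filter (0 of 16 on the array), and of 6 epithelial and fibroblast markers only COL1A1 did, at 5.16 and 5.08. Several array measures differed between the groups. Probe sets for 18S ribosomal RNA lay at 12.03 and 11.33 at 6 h and at 8.46 and 9.73 at 0 h, the hybridization spike-ins at 10.61 and 10.66 against 9.80 and 10.20, and the array medians over tested probe sets at 6.66 and 6.76 against 6.98 and 6.94. When the fit took the 18S level as a covariate, 6 probe sets were called higher and 0 lower (468 at an unadjusted p under 0.05), at a median SE of 0.302 in place of 0.148. Beyond such fits, the part of the 18S and spike-in levels in these results was not tested.

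At 6 h, more genes fell than rose, while the 4 highest rises were larger than any fall. Of the 2819 genes, 124 (4.4%) were called higher and 576 (20.4%) lower. The changes of the tested probe sets ran from -1.09 at the fifth percentile to 0.45 at the 95th, with a median of -0.14. This balance depended on the scaling. With the array medians made equal, which adds 0.25 to every change, 417 genes (14.8%) were called higher and 381 (13.5%) lower. All 124 genes called higher kept that call, 378 of the 576 called lower kept theirs, and 0 turned to a call in the other direction. Counted by probe set, 174 (4.07%) were called higher and 925 (21.6%) lower, and 613 (14.3%) and 603 (14.1%) with equal array medians. By the submitters' fold rule (both later arrays over 2 or under 0.5 times the 0 h geometric mean), 40 probe sets (0.935%) were higher and 175 (4.09%) lower, and 31 called genes rose (1.1%) and 103 fell (3.65%). Among genes with several tested probe sets, 11 of 24 called higher had another probe set called higher and 0 one called lower, and of 167 called lower 109 had another called lower and 1 another called higher. Without 1 of the 4 arrays compared, 54 to 99 of the 2819 genes were called higher and 216 to 480 lower. Because the arrays read RNA of whole cultures, fewer cells with a transcript and less of it in each cell cannot be told apart.

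**Figure D1:**
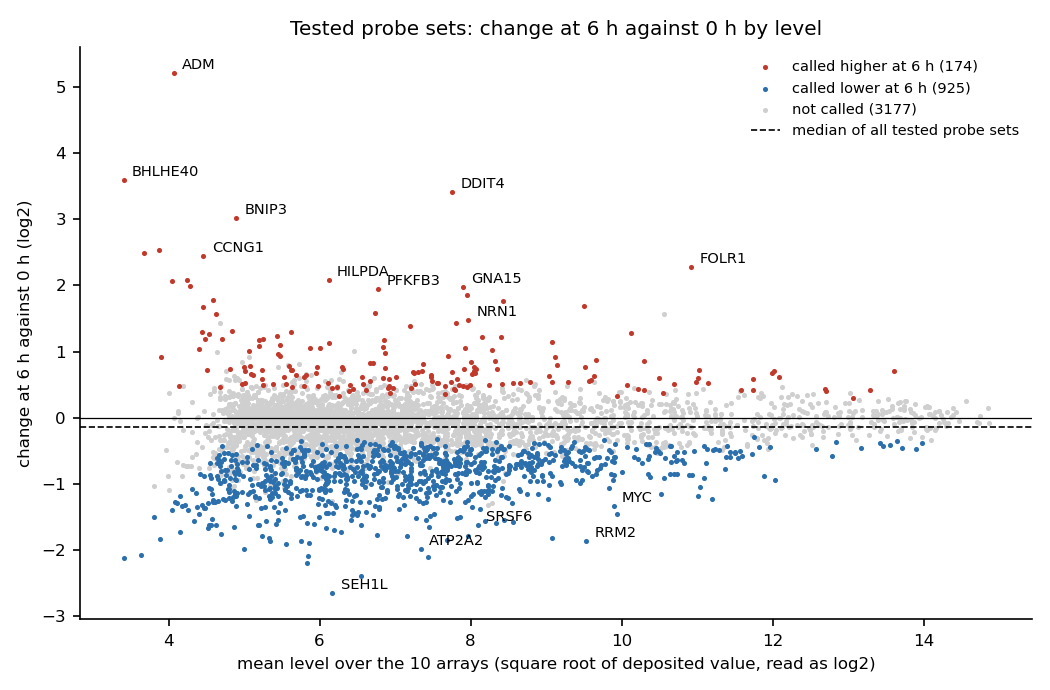
Change at 6 h against 0 h (log2, vertical axis) of the 4276 tested probe sets against their mean level over the 10 arrays (horizontal axis), with 174 called higher in red, 925 called lower in blue and the others in grey. The highest changes belong to ADM, BHLHE40, DDIT4 and BNIP3, and the dashed line marks the median of all tested probe sets, -0.14.

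The 4 highest rises belonged to targets of HIF-1. Of 38 genes listed as HIF-1 targets, 35 are on the array and 15 were tested; 12 of the 15 rose and 0 fell, where 4.4% of all tested genes rose. Their median change was 1.39 and that of all tested genes -0.13, or 1.64 and 0.12 with equal array medians, where all 15 were called higher. The filter matters for this count, since 6 of the 12 reached the tested level only through their 6 h arrays. Of the 9 that pass without counting those arrays 6 rose, where 3.72% of all genes tested in this way did. With no filter, 11 of the 35 were called higher and 0 lower, where 0.777% of 11963 genes were called higher and 2.69% lower. When 18S was a covariate 4 of the 15 were called (median 1.72), and with the spike-in level 6 (median 1.35). The list was drawn up with earlier results of these arrays known and is no independent evidence of its direction.

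DDIT4, the inhibitor of mTORC1, stood at 10.31 and 10.28 on the 6 h arrays and at 6.88 and 6.90 on the 0 h arrays. The groups lay far apart, and the rise of 3.40 (SE 0.142, adjusted p = 9.67e-06) corresponds to 10.6-fold. ADM, which encodes the vasodilator peptide adrenomedullin, stood at 7.96 and 8.23 at 6 h and at 2.81 and 2.97 at 0 h, near the bottom of the scale. It rose by 5.21 (SE 0.2, adjusted p = 9.64e-06), or by at least 3.10 when floored. BNIP3, the mitophagy receptor, stood at 7.75 and 7.65 at 6 h and at 4.88 and 4.48 at 0 h, and it rose by 3.02 (SE 0.212, adjusted p = 0.000288), by 2.70 when floored. Its other probe set gave 2.09. BHLHE40, a transcriptional repressor of the cell's clock and of hypoxia responses, was at 6.48 and 6.06 at 6 h and at 2.68 and 2.67 at 0 h, a rise of 3.59 (adjusted p = 9.64e-06) and of at least 1.27 when floored. For all 4 of these genes both 6 h arrays exceeded both 0 h arrays (the groups did not overlap, in one direction or the other, in 66.1% of tested genes), and their calls held under each alternative setting that tested them, the 18S covariate included. The filter at a level of 7 left BHLHE40 out.

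The capital letters below show where the core of the HIF-1 motif, searched as ACGTG and GCGTG, occurs on either strand in the promoters of the 5 called HIF-1 targets with the highest changes whose promoter was found. CACGT and CACGC are these letters read on the other strand, and CACGTG holds ACGTG on both. Each run covers 250 bases before and 50 after the gene's start from RefSeq (GRCh38.p14): ADM at chr11:10304823-10305122 on the plus strand, BHLHE40 at chr3:4979187-4979486 (plus), DDIT4 at chr10:72273674-72273973 (plus), BNIP3 at chr10:131981874-131982173 (minus) and P4HA1 at chr10:73096817-73097116 (minus).
ADM: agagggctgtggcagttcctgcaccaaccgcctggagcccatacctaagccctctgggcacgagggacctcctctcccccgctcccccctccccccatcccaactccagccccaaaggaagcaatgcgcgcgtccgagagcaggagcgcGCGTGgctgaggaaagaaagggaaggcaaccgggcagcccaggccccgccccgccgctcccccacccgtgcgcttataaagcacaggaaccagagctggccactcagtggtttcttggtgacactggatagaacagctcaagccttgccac
BHLHE40: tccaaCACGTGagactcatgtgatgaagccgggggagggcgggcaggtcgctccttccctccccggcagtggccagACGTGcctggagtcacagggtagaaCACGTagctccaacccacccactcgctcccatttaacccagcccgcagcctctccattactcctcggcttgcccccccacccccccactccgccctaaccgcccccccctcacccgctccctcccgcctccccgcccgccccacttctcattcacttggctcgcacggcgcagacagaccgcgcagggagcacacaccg
DDIT4: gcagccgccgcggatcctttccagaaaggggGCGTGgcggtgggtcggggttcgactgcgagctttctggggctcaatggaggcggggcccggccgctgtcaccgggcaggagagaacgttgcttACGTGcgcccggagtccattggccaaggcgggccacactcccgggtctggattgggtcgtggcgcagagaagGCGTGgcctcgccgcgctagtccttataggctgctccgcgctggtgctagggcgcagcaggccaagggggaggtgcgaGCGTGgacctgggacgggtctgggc
BNIP3: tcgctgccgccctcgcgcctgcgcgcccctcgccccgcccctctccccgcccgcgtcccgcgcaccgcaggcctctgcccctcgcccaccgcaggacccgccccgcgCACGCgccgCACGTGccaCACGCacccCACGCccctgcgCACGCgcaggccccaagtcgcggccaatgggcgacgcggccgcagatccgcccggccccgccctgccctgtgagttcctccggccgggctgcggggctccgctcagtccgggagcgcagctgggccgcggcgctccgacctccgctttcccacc
P4HA1: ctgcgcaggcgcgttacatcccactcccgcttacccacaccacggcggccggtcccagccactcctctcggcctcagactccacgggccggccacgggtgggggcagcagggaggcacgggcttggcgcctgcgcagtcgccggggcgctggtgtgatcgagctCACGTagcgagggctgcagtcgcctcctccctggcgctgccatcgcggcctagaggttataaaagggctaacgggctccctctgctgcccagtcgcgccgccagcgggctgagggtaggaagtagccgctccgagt
The ADM window has 1 match and that of P4HA1 also 1, BHLHE40 has 4 with CACGTG among them, DDIT4 has 4 and BNIP3 has 6, again with CACGTG. Of the 12 called HIF-1 targets 9 were found in the promoter table, and all 9 windows held at least 1 of the 2 motifs. The motifs are common letters, however: 67.8% of the 2392 tested genes with a promoter held one, as did 59.4% of the genes called higher, 68.3% of those called lower and 48.4% of all 35116 promoters. The 9 windows also had a mean GC content of 71.7%, where that of the tested genes was 64.6%, so their letters favour such matches. A match describes the sequence and does not show binding.

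The other called HIF-1 targets rose by less. HILPDA, a lipid droplet protein that blocks fat breakdown, stood at 7.88 and 7.48 at 6 h and at 5.62 and 5.57 at 0 h and rose by 2.08 (SE 0.171, adjusted p = 0.000498). P4HA1, a subunit of the collagen prolyl hydroxylase, was at 6.14 and 6.40 at 6 h and at 3.38 and 4.11 at 0 h, a rise of 2.53 (adjusted p = 0.0014) and of at least 1.27 when floored. BNIP3L, the relative of BNIP3, was read at 8.33 and 8.76 at 6 h and at 7.69 and 6.63 at 0 h. Its rise of 1.39 (SE 0.396, adjusted p = 0.0355) was lost without 0 h replicate 2 (adjusted p = 0.174), without either 6 h array (0.0817 and 0.149) and with no filter (0.239), while its other probe set rose by 1.77 (adjusted p = 0.000867). FAM162A and ZNF395, named after their values were seen because they complete the called members, rose by 0.91 (adjusted p = 0.00235) and 1.30 (adjusted p = 0.0149). ZNF395 lost its call without 0 h replicate 1 (0.106) or 6 h replicate 2 (0.0622). FAM162A is a mitochondrial protein induced by hypoxia, and ZNF395 a zinc finger factor. KDM4B, a histone demethylase, WSB1, a ubiquitin ligase subunit, and the cytokine MIF changed by 0.26, 0.56 and 0.29 and were not called (adjusted p = 0.0714, 0.223 and 0.147). The other 20 listed targets on the array were below the filter, with 6 h means of at most 4.82 and changes of -0.75 to 1.40, and 16 of them had a higher mean at 6 h. VEGFA, the angiogenic growth factor, was one of them, and its brightest probe set stood at 3.47 and 4.15 at 6 h and at 2.86 and 2.85 at 0 h. HIF1A itself, the alpha subunit, also lay under the filter, at 3.34 and 3.75 at 6 h and 3.43 and 3.37 at 0 h. Of 15 HIF subunits and regulators on the array 3 were tested, and 0 were called.

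Genes of glycolysis rose in part. Of 21 tested genes of glycolysis and glucose uptake, 9 rose and 2 fell, at a median of 0.41 (0.66 with equal array medians, where 17 rose and 0 fell). Over all tested genes 4.4% rose and 20.4% fell. Of the 9 risers, 2 reached the tested level only through their 6 h arrays. Without counting those arrays 18 genes pass, of which 7 rose and 2 fell. Of all genes tested in this way 3.72% rose. PFKFB3, HK2 and SLC2A1 belong to the list of HIF-1 targets too and were counted there. PFKFB3 makes the sugar phosphate that activates phosphofructokinase. It stood at 8.19 and 8.09 at 6 h and at 6.24 and 6.14 at 0 h, a rise of 1.95 (SE 0.121, adjusted p = 0.000178). HK2, a hexokinase that traps glucose in the cell, was at 6.27 and 6.15 at 6 h and at 5.01 and 5.03 at 0 h and rose by 1.19 (SE 0.102, adjusted p = 0.000621). Its relative HK1 rose by 0.97 (adjusted p = 0.00306). The glucose transporter SLC2A3 was at 5.48 and 5.66 at 6 h and at 3.83 and 3.96 at 0 h, a rise of 1.68 (adjusted p = 0.00226) and of at least 0.57 when floored. SLC2A1, the other main transporter, named after its values were seen, rose by 1.18 (adjusted p = 0.00729), but its floored change of 0.53 was not called (adjusted p = 0.101), and its call was lost without 0 h replicate 1 (0.0523).

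The remaining called enzymes of the pathway were named after their values were seen. The aldolases ALDOC and ALDOA rose by 1.05 (adjusted p = 0.00389) and 0.62 (0.0167), the mutase PGAM1 by 0.67 (0.00838) and the isomerase TPI1 by 0.41 (0.0419). The phosphofructokinase subunit PFKM fell by 0.43 (0.0437) and the lactate dehydrogenase subunit LDHB by 0.42 (0.0463), and neither was called lower with equal array medians. Without 0 h replicate 1, adjusted p was 0.0721 for ALDOA, 0.0564 for PGAM1, 0.139 for TPI1, 0.135 for PFKM and 0.229 for LDHB, and TPI1 and LDHB lost their calls without any 1 of the 4 arrays. ALDOA was not called without 0 h replicate 2 (0.0725) or 6 h replicate 1 (0.1) either, nor PFKM without 0 h replicate 2 (0.138) or 6 h replicate 2 (0.192). Several other abundant transcripts of the pathway were not called. LDHA, the lactate-forming subunit, changed by 0.26 (adjusted p = 0.181), the enolase ENO1 by 0.23 (0.116), the kinase PGK1 by 0.20 (0.285) and GAPDH by -0.06 (0.684), all at levels over 12. With equal array medians ENO1 (0.48, adjusted p = 0.0163) and PGK1 (0.45, 0.0402) were called higher and GAPDH (0.19, 0.269) was not. Other probe sets changed by 0.42 to 0.81 for ENO1 and by -0.07 to 0.69 for PGK1. Without 1 of the 4 arrays compared, 5 to 8 genes of the list rose and 0 or 1 fell.

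**Figure D2:**
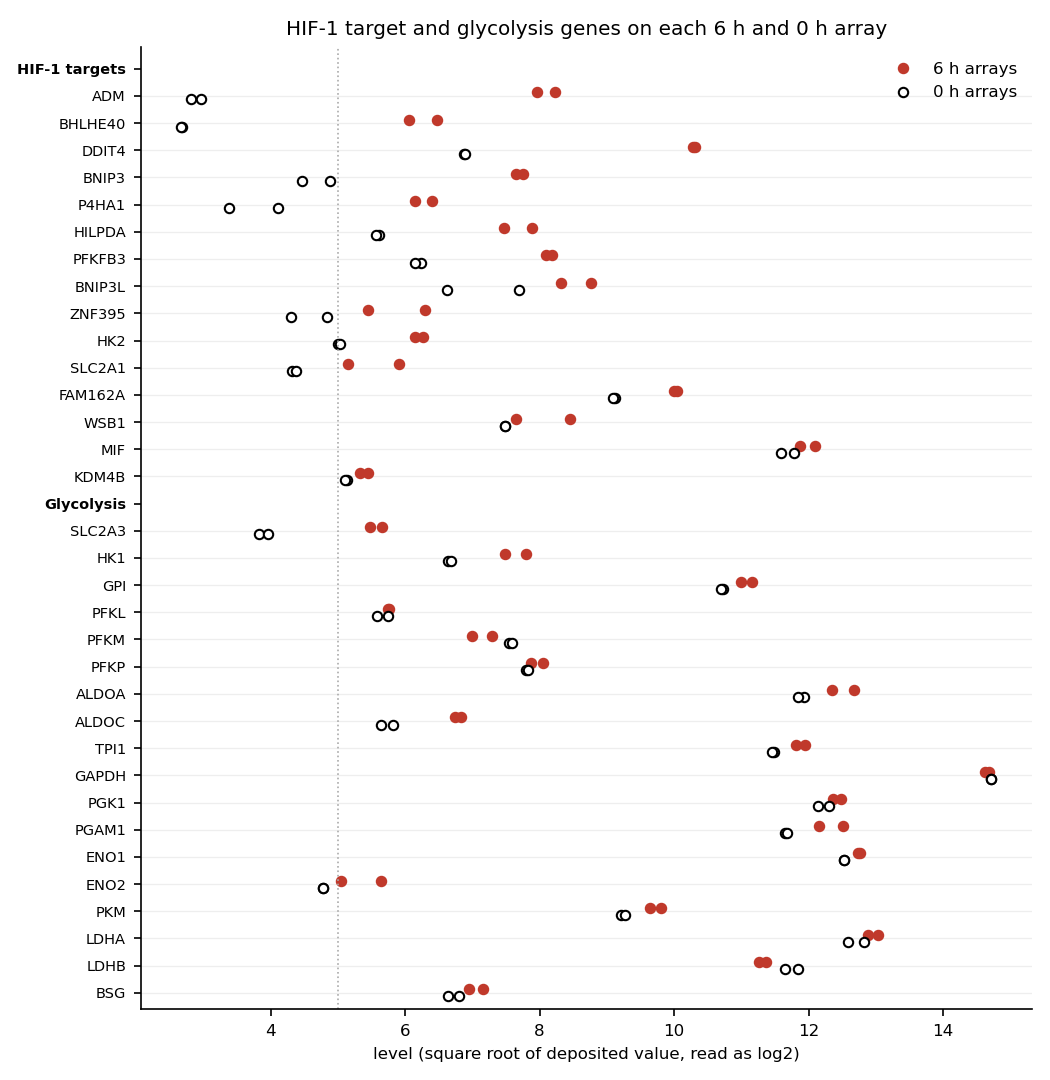
Levels (square root of the deposited score, read as log2) of the 15 tested HIF-1 targets and the other tested genes of glycolysis on each array, with the 6 h arrays filled and the 0 h arrays open. The dotted line is the filter level of 5, and ADM, BHLHE40, BNIP3, P4HA1, ZNF395, SLC2A1, SLC2A3 and ENO2 lie below it at 0 h and above it at 6 h.

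Genes outside these lists were among the 15 highest rises, ranked by floored change, as well. GNA15, the alpha subunit of a G protein that haematopoietic cells carry, stood at 9.11 and 9.00 at 6 h and at 7.05 and 7.12 at 0 h and rose by 1.97 (SE 0.154, adjusted p = 0.000475). It was the only riser among 10 tested genes of CD47 partners and G proteins, where 4.4% of all tested genes rose. UBQLN2 of the same list was called lower (-1.33, adjusted p = 0.00903, and -0.70 when floored). CCNG1, cyclin G1, which p53 induces, was at 6.78 and 7.03 at 6 h and at 4.81 and 4.12 at 0 h, a rise of 2.44 (adjusted p = 0.00113) and of 1.90 when floored. Its call held with the 18S covariate (adjusted p = 0.00724) and was lost with the spike-in covariate (0.0588). MKNK2, a kinase of the translation factor EIF4E, rose by 1.85 (adjusted p = 0.000623), with 9.35 and 9.29 at 6 h and 7.23 and 7.70 at 0 h. The neuritin gene NRN1 rose by 1.48 (adjusted p = 0.000487), the junction protein JAM3 by 1.44 (0.00193) and IGFBP2, which binds insulin-like growth factors, by 1.28 (0.0014). FOLR1, the folate receptor alpha, stood at 12.06 and 11.28 at 6 h and at 8.74 and 10.04 at 0 h. The groups did not overlap, but the 0 h arrays differed by more than 1, and its rise of 2.28 (SE 0.629, adjusted p = 0.031) was lost without 0 h replicate 1 (0.197) or either 6 h array (0.166 and 0.0549) and turned to -0.79 with the 18S covariate (adjusted p = 0.452).

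Immediate early genes, which many stimuli switch on without new protein synthesis, were represented by 6 tested members, of which 4 rose and 1 fell (2 and 0 without 0 h replicate 1). Over all tested genes 4.4% rose and 20.4% fell. IER3 was tested only through its 6 h arrays, and of the 5 members that pass without them 3 rose and 1 fell. The list has 24 genes on the array, of which 2 were called higher and 0 lower with no filter. In that fit 0.777% of all genes were called higher and 2.69% lower. JUND, a subunit of the transcription factor AP-1, stood at 7.66 and 7.68 at 6 h and at 5.88 and 6.28 at 0 h, a rise of 1.59 (SE 0.196, adjusted p = 0.00193). IER3, a regulator of survival, rose by 2.06 (adjusted p = 0.00113) and by at least 0.56 when floored, and KLF10, a zinc finger factor, rose by 1.17 (0.00756), a call lost without 0 h replicate 1 (0.0565). FOS was not tested, with 2.34 and 2.29 at 6 h and 2.31 and 2.31 at 0 h, and neither was EGR1, at 4.13 and 4.35 at 6 h and 2.36 and 2.34 at 0 h. ID1, which binds E proteins and keeps them off DNA, changed by -0.0031 (SE 0.0921, adjusted p = 0.989), although it stood 2.34 above 0 h at 1 h. In the BCL2 family 3 of 10 tested genes rose and 2 fell, the falls near the 20.4% of all tested genes. The risers were BNIP3, BNIP3L and the killer protein BIK, which rose by 0.78 (adjusted p = 0.00613). BNIP3 was tested only through its 6 h arrays, and of the 9 members that pass without them 2 rose and 2 fell. PMAIP1, the killer protein NOXA, was at 6.62 and 6.51 at 6 h and at 7.93 and 7.72 at 0 h and fell by 1.26 (SE 0.123, adjusted p = 0.000819), and the survival protein MCL1 fell by 0.73 (0.0107), a call lost without 0 h replicate 1 (0.0675) or 6 h replicate 1 (0.0519). BCL2 and BCL2L1 differed from 0 h by 0.0074 and -0.0038 (adjusted p = 0.973 and 0.985).

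MYC, several genes of ribosome assembly and ODC1 were lower at 6 h. MYC stood at 9.00 and 9.10 on the 6 h arrays and at 10.44 and 10.33 on the 0 h arrays, so that it fell by 1.33 (SE 0.107, adjusted p = 0.000498), and by 1.08 with equal array medians. ODC1, the rate-limiting enzyme of polyamine synthesis and a known MYC target, stood at 8.92 and 8.93 at 6 h and at 10.43 and 10.34 at 0 h and fell by 1.46 (SE 0.1, adjusted p = 0.000282). Of 10 tested genes of polyamine synthesis 3 fell and 2 rose, at a median of -0.10 that turned to 0.15 with equal array medians. Over all tested genes 20.4% fell and 4.4% rose. SMS, the spermine synthase, fell by 0.82 (adjusted p = 0.00445) and AZIN1, which keeps antizyme from ODC1, fell by 1.39 (0.00759), a call lost without 0 h replicate 1 (0.0582) or 6 h replicate 1 (0.0515). EIF5A, the factor that spermidine modifies, rose by 0.86 (0.00156). The antizyme OAZ2, named after its values were seen, rose by 0.45 (0.0329), a call lost without 0 h replicate 1 (0.188) or either 6 h array (0.0721 and 0.132).

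Of 20 tested genes of ribosome biogenesis 9 fell and 0 rose, at a median of -0.45 (-0.20 with equal array medians, where 7 fell and 1 rose). NIP7, a factor of 60S assembly, was at 4.82 and 5.35 at 6 h and at 6.61 and 6.88 at 0 h and fell by 1.66 (SE 0.185, adjusted p = 0.00128). NOP16, a nucleolar protein, was at 7.26 and 7.35 against 8.47 and 8.44 and fell by 1.15 (adjusted p = 0.000623). MRTO4 fell by 1.16 (0.0013) and UTP18 by 1.20 (0.00226), both assembly factors as well. Of 52 tested genes of cytosolic ribosomal proteins, the parts of the finished ribosome, 3 rose and 0 fell, with changes of -0.20 to 0.60, where 4.4% of all tested genes rose. With equal array medians 11 rose, and 1 did without 0 h replicate 1 or without 6 h replicate 1. RPL14 rose by 0.58 (adjusted p = 0.00838), RPLP2 by 0.60 (0.0112) and RPS28 by 0.43 (0.0167). RPL14 lost its call without 6 h replicate 1 (0.0505), RPLP2 without 0 h replicate 1 (0.066) and RPS28 without any 1 of the 4 arrays (0.0531 to 0.0862). Among 31 translation factors 8 fell and 2 rose, where 20.4% of all tested genes fell. Equal array medians gave 7 falls and 9 rises. Without 0 h replicate 1 the falls were 2, and without 6 h replicate 1 they were 4. EIF4G1, the scaffold of cap binding, fell by 0.79 (0.00464) and EIF3D by 0.70 (0.0042). RHEB, the GTPase that activates mTORC1, stood at 8.87 and 9.08 at 6 h and at 9.94 and 9.66 at 0 h and fell by 0.83 (SE 0.131, adjusted p = 0.00419). It was 1 of 2 falling genes among 8 tested regulators of mTORC1, of which DDIT4 alone rose.

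Messenger RNAs of many splicing proteins were lower at 6 h. Of 38 tested heterogeneous nuclear ribonucleoproteins (HNRNP) and serine-arginine-rich (SR) factors, 20 fell and 0 rose, where 20.4% of all tested genes fell. The median was -0.62, and -0.37 with equal array medians, where 18 fell and 0 rose. SRSF6 stood at 6.81 and 6.69 at 6 h and at 8.45 and 8.30 at 0 h and fell by 1.63 (SE 0.106, adjusted p = 0.000212). TRA2A, which binds exonic enhancers, was at 6.52 and 6.60 against 8.19 and 7.96 and fell by 1.51 (SE 0.136, adjusted p = 0.000651). SRRM1, a coactivator of splicing, fell by 1.59 (0.00366), although its other probe set fell by 0.45 only. SRSF1, one of the first splicing factors to be purified, was among the most abundant. It stood at 9.79 and 9.99 at 6 h and at 10.93 and 11.16 at 0 h and fell by 1.16 (SE 0.119, adjusted p = 0.000949). HNRNPA0 fell by 1.29 (adjusted p = 0.000867), but its other probe set changed by 0.02. Without 1 of the 4 arrays compared 11 to 19 members fell and 0 rose, 11 of them without 0 h replicate 1.

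Chaperones of the endoplasmic reticulum, which fold secreted and membrane proteins, showed 9 falls and 0 rises among 15 tested genes (20.4% of all tested genes fell), at a median of -0.68 (-0.43 with equal array medians). HSPA5, the HSP70 of that compartment, was at 7.86 and 7.98 at 6 h and at 9.42 and 9.18 at 0 h and fell by 1.39 (SE 0.298, adjusted p = 0.0125), a call lost without 0 h replicate 1 (0.0858), without 6 h replicate 1 (0.0678) and with no filter (0.0996). HERPUD1, a part of the machinery that removes misfolded proteins, fell by 1.00 (adjusted p = 0.00519), the chaperone HYOU1 by 0.89 (0.00686), the disulfide isomerase PDIA4 by 0.77 (0.00575) and the translocon subunit SEC61A1 by 0.74 (0.00225). Without 0 h replicate 1 or 6 h replicate 1, 4 members fell. Of 16 heat shock proteins of the cytosol and mitochondria 6 fell and 0 rose, at a median of -0.46 (-0.21 with equal array medians), and 3 fell without 0 h replicate 1. HSPA4, an exchange factor of HSP70, stood at 6.13 and 6.09 at 6 h and at 7.30 and 7.11 at 0 h and fell by 1.09 (SE 0.107, adjusted p = 0.000819). HSPA9, the mitochondrial HSP70, fell by 1.16 (0.00432), and its exchange factor GRPEL1 by 1.62 (0.000752).

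Ion transport, redox defence and the citric acid cycle added several of the lowest changes. ATP2A2, the calcium pump of the endoplasmic reticulum, stood at 5.74 and 6.39 at 6 h and at 8.13 and 7.97 at 0 h and fell by 1.99 (SE 0.21, adjusted p = 0.00111). ATP1B3, a subunit of the sodium pump, fell by 1.15 (0.000623), and 5 of 8 tested ion pump genes fell, where 20.4% of all tested genes did. With equal array medians 3 fell, and without 1 of the 4 arrays 2 to 4, with 2 without 0 h replicate 1 and 3 without 6 h replicate 1. TXNRD1, which reduces thioredoxin, was at 6.50 and 6.65 at 6 h and at 8.31 and 8.14 at 0 h and fell by 1.65 (SE 0.176, adjusted p = 0.00112). TXNIP, the inhibitor of thioredoxin and of glucose uptake, fell by 1.08 (adjusted p = 0.00922) from a low level, and floored the change was -0.67 and not called (0.0512). TXNIP lost its call without 0 h replicate 2 (0.0515) or 6 h replicate 1 (0.0507) too. Of 19 redox genes 6 fell and 1 rose, the lipid peroxidase GPX4 by 0.58 (0.014), while with equal array medians 4 fell and 5 rose. GPX4 lost its call without 0 h replicate 1 (0.0947) or 6 h replicate 1 (0.082), and the falls were 3 and 2 there and 2 without 0 h replicate 2. In the citric acid cycle and pyruvate dehydrogenase 7 of 15 tested genes fell and 0 rose (5 and 2 with equal array medians), and SUCLG2 fell by 1.09 (0.00226), IDH3A fell by 1.07 (0.00237) and ACLY, which turns citrate into acetyl-CoA, fell by 1.23 (0.00356). Oxidative phosphorylation changed less. Of its 38 tested genes 4 fell and 0 rose at a median of -0.02, which turned to 0.23 with equal array medians, where 9 rose and 1 fell. Without 1 of the 4 arrays, whichever it was, 1 or 2 fell. ATP5F1A, the alpha subunit of ATP synthase, fell by 0.68 (0.00324).

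The largest fall of all belonged to SEH1L, a nuclear pore protein that is also part of the amino acid sensor of mTORC1. It stood at 5.38 and 4.62 at 6 h and at 7.89 and 7.40 at 0 h and fell by 2.65 (SE 0.411, adjusted p = 0.00386), by 2.46 when floored. Others among the 15 lowest, ranked by floored change, were YRDC, an enzyme of transfer RNA modification (-1.84, adjusted p = 0.000926), the receptor phosphatase PTPRO (-1.82, 0.000654), the RNA-binding protein RBM12 (-1.78, 0.00226), CTPS1, the CTP synthase on which dividing lymphocytes depend (-1.70, 0.00156), the phosphoinositide phosphatase MTMR4 (-1.61, 0.000654), ISOC1 (-1.73, 0.00237) and MMD (-1.58, 0.00533).

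**Figure D3:**
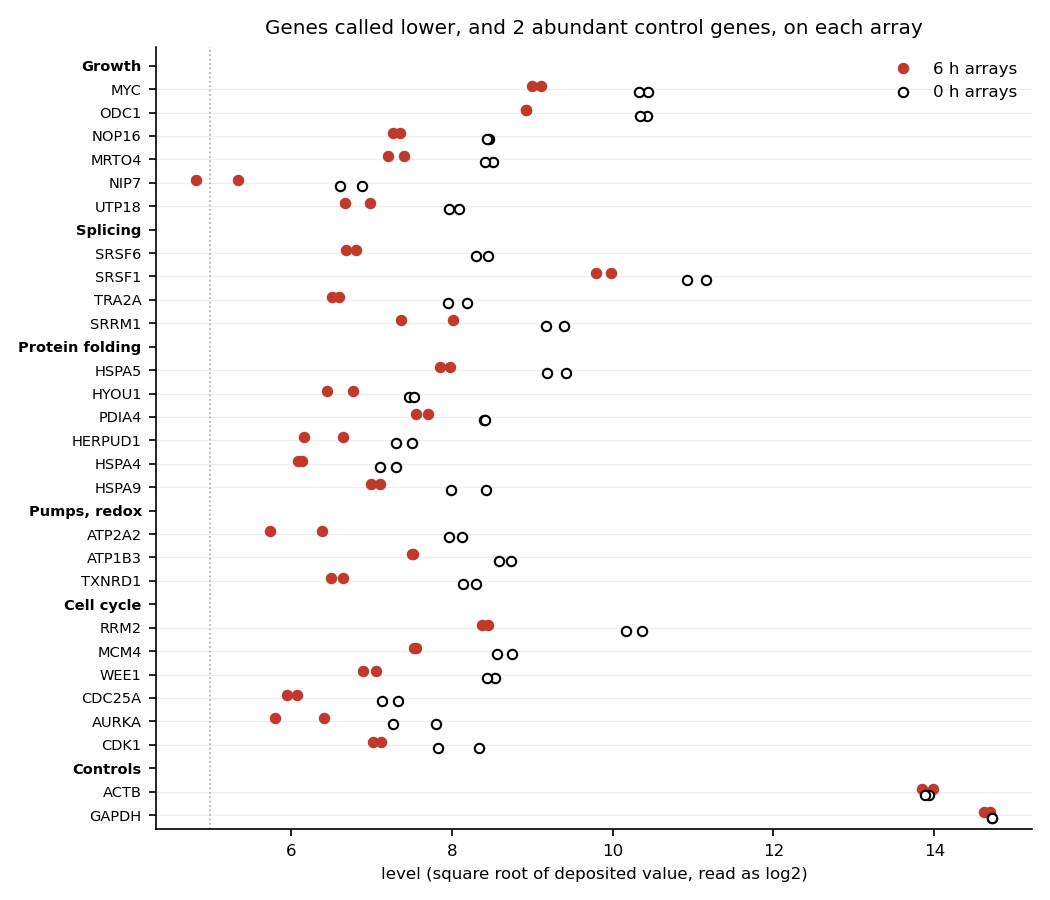
Levels (square root of the deposited score, read as log2) of 25 genes called lower and of ACTB and GAPDH on each array, with the 6 h arrays filled and the 0 h arrays open; the dotted line is the filter level of 5. In each of the 25 genes, which were taken from those called lower, both 6 h arrays lie below both 0 h arrays. The same holds for 1321 of all 2819 tested genes. ACTB and GAPDH were not called.

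Cell cycle genes fell in part. In DNA replication and S phase, 13 of 35 tested genes fell and 1 rose, at a median of -0.29 (-0.04 with equal array medians, where 8 fell and 3 rose). Without 6 h replicate 1 the falls were 5 and without 0 h replicate 1 they were 6. RRM2, the regulated subunit of ribonucleotide reductase, stood at 8.38 and 8.45 at 6 h and at 10.37 and 10.17 at 0 h and fell by 1.86 (SE 0.162, adjusted p = 0.000623), while its other probe set fell by 0.65. MCM4, a subunit of the replicative helicase, fell by 1.11 (0.00236) and the polymerase subunit POLE3 by 1.15 (0.00324). In G2 and mitosis 7 of 27 tested genes fell and 2 rose, where 20.4% of all tested genes fell. Equal array medians gave 5 falls and 4 rises, and the median of -0.25 turned to 0.0011. WEE1, the kinase that holds back CDK1, was at 6.90 and 7.06 at 6 h and at 8.53 and 8.44 at 0 h and fell by 1.51 (SE 0.165, adjusted p = 0.0012). Its opponent CDC25A fell by 1.22 (0.00385), CDK1 itself by 1.01 (0.00678) and the mitotic kinase AURKA by 1.43 (0.00466). The abundant transcripts TYMS, PCNA and STMN1, chosen after their values were seen, changed by -0.29 (0.0485), -0.51 (0.0201) and -0.26 (not called, 0.32). TYMS and PCNA lost their calls without any 1 of the 4 arrays (adjusted p 0.104 to 0.151 and 0.062 to 0.0964).

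Most genes of the T lineage were not called, as was true of all tested genes, of which 4.4% rose and 20.4% fell. Of 13 tested genes of the T-cell receptor and its kinases 1 rose and 1 fell: ZAP70, the kinase at the receptor's zeta chain, rose by 0.46 (adjusted p = 0.014) and the adaptor LCP2 fell by 0.95 (0.00776). Without 0 h replicate 1 neither was called (0.0801 and 0.0624), and ZAP70 also lost its call without 6 h replicate 2 (0.0618). The other probe set of LCP2 changed by -0.16 only. CD3D, CD3E, CD3G and CD247 changed by -0.02 to 0.09 and were not called. Among thymocyte surface markers CD6 changed by 0.48 (adjusted p = 0.0394) and CD1A by -0.76 (0.0378). Both calls were lost with a block for the replicate number. Of 10 T-lineage transcription factors TCF3 rose by 0.88 (0.00866; 0.0647 without 0 h replicate 1), and the other 9, among them GATA3, NOTCH1 and TAL1, were not called, at a list median of -0.45 (-0.20 with equal array medians). TCF3 had 7 tested probe sets, and those other than the brightest changed by 0.02 to 0.26 only. CD47, the antigen of MABL, was read by 4 probe sets, of which 2 were tested. The brightest stood at 8.87 and 8.96 at 6 h and at 8.98 and 8.94 at 0 h (change -0.04, SE 0.134, adjusted p = 0.86). The second stood at 7.64 and 7.92 at 6 h and at 8.75 and 8.43 at 0 h and fell by 0.80 (adjusted p = 0.00856), a call lost without 0 h replicate 1 (0.0649) or 6 h replicate 1 (0.0574), so the probe sets of CD47 disagree. None of 5 tested targets of NF-kappaB was called (adjusted p at least 0.0728), and of 3 interferon-stimulated genes IFI6 rose by 0.65 (0.0292) and IFITM1 by 0.53 (0.0333). IFITM1 lost its call without any 1 of the 4 arrays (0.0829 to 0.151), and IFI6 without 0 h replicate 1 (0.132) or either 6 h array (0.123 and 0.083).

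**Figure D4:**
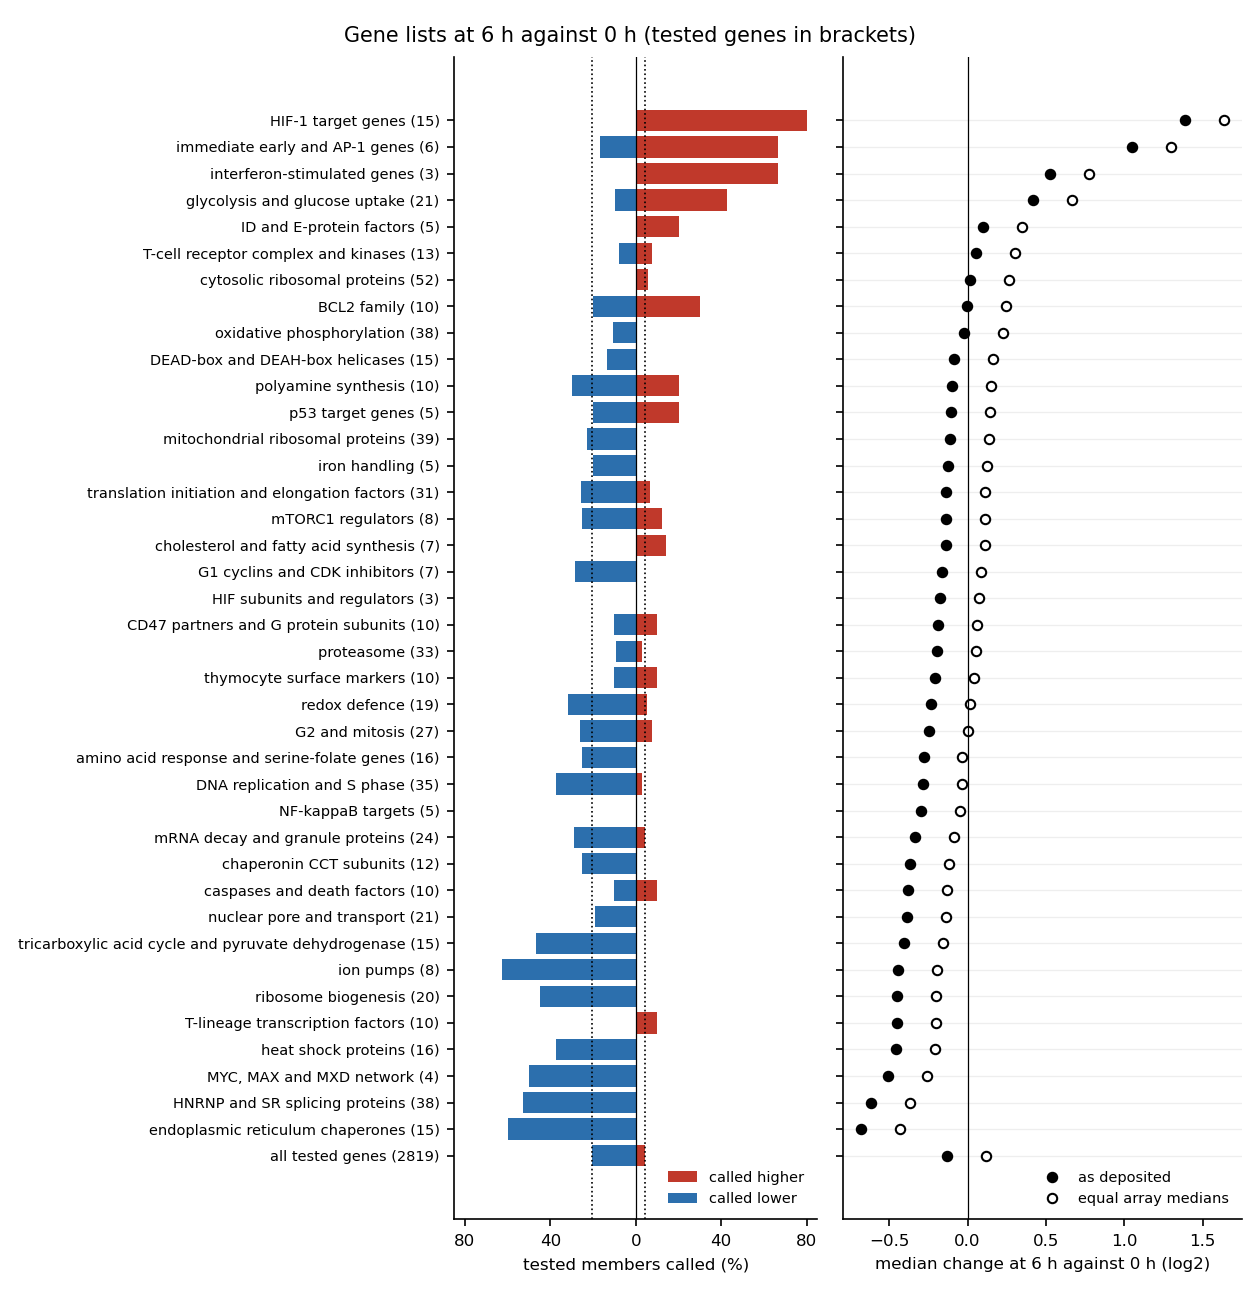
For 39 gene lists and all tested genes, the share of tested members called lower (blue) and higher (red) at 6 h against 0 h on the left, with dotted lines at the shares of all tested genes (20.4% and 4.4%), and the median change (log2) on the right, filled as deposited and open with equal array medians. Of 15 HIF-1 targets 12 are called higher, 6 of which passed the filter through the 6 h arrays alone, and chaperones of the endoplasmic reticulum have the lowest median, -0.68.

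The 6 h arrays were also set against those of 3 h. This comparison shares the 6 h arrays with that against 0 h, so the values of both are given side by side and the calls they have in common are not counted. Here 157 genes (5.57%) were called higher and 57 (2.02%) lower, so that rises outnumbered falls, and with equal array medians 238 (8.44%) and 138 (4.9%). By probe set the counts were 214 (5.0%) higher and 89 (2.08%) lower, and 325 (7.6%) and 201 (4.7%) after the medians were made equal. Of the 15 tested HIF-1 targets 10 were called higher than at 3 h and 0 lower. The filter shapes this count too, since 6 of the 15 reached the tested level only through their 6 h arrays. ADM, BHLHE40, BNIP3 and P4HA1 are among those 6. Each of these named genes had a 3 h mean under 5, so its rise from 3 h starts below the tested level. Floored changes, not given here, would be smaller, since BHLHE40 and P4HA1 both averaged only 6.27 at 6 h. BNIP3 rose by 3.03 between these times (adjusted p = 0.000296), ADM by 4.37 (2.61e-05), BHLHE40 by 3.53 (1.65e-05), P4HA1 by 3.12 (0.00118) and HK2 by 1.17 (0.00095), and at 3 h BNIP3, BHLHE40 and HK2 stood within 0.07 of 0 h. DDIT4 and PFKFB3 were up before: they stood 2.67 and 1.07 above 0 h at 3 h and rose by a further 0.73 (adjusted p = 0.0228) and 0.88 (0.00609). GNA15 and JUND were at 1.60 and 1.14 over 0 h at 3 h, and their further changes of 0.37 and 0.45 were not called (adjusted p = 0.209 and 0.227). NRN1, which stood 0.89 below 0 h at 3 h, rose by 2.37 (3.58e-05), and MKNK2 rose by 1.95 (0.000772).

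Some genes came down in steps and others came back. MYC was 0.66 below 0 h at 3 h and fell by a further 0.67 (adjusted p = 0.0101), ODC1 was 0.75 below and fell by a further 0.71 (0.00661), and SRSF6 was 0.41 below and fell by a further 1.21 (0.00095). NOP16 and MRTO4 fell by 0.85 (0.00369) and 0.88 (0.00777) after 3 h. HSPA5 was 2.96 below 0 h at 3 h and rose by 1.57 from there (adjusted p = 0.0207), and HSPA4 was 1.61 below and rose by 0.52 (0.0283), so both were nearer to 0 h at 6 h than at 3 h. The median change of the 16 heat shock proteins was -1.09 at 1 h, -0.81 at 3 h and -0.46 at 6 h. Of these proteins 3 were called higher at 6 h than at 3 h and 0 lower, where 5.57% of all tested genes were called higher and 2.02% lower. With equal array medians HSPA4 rose by 0.45 from 3 h and was not called (adjusted p = 0.0528).

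**Figure D5:**
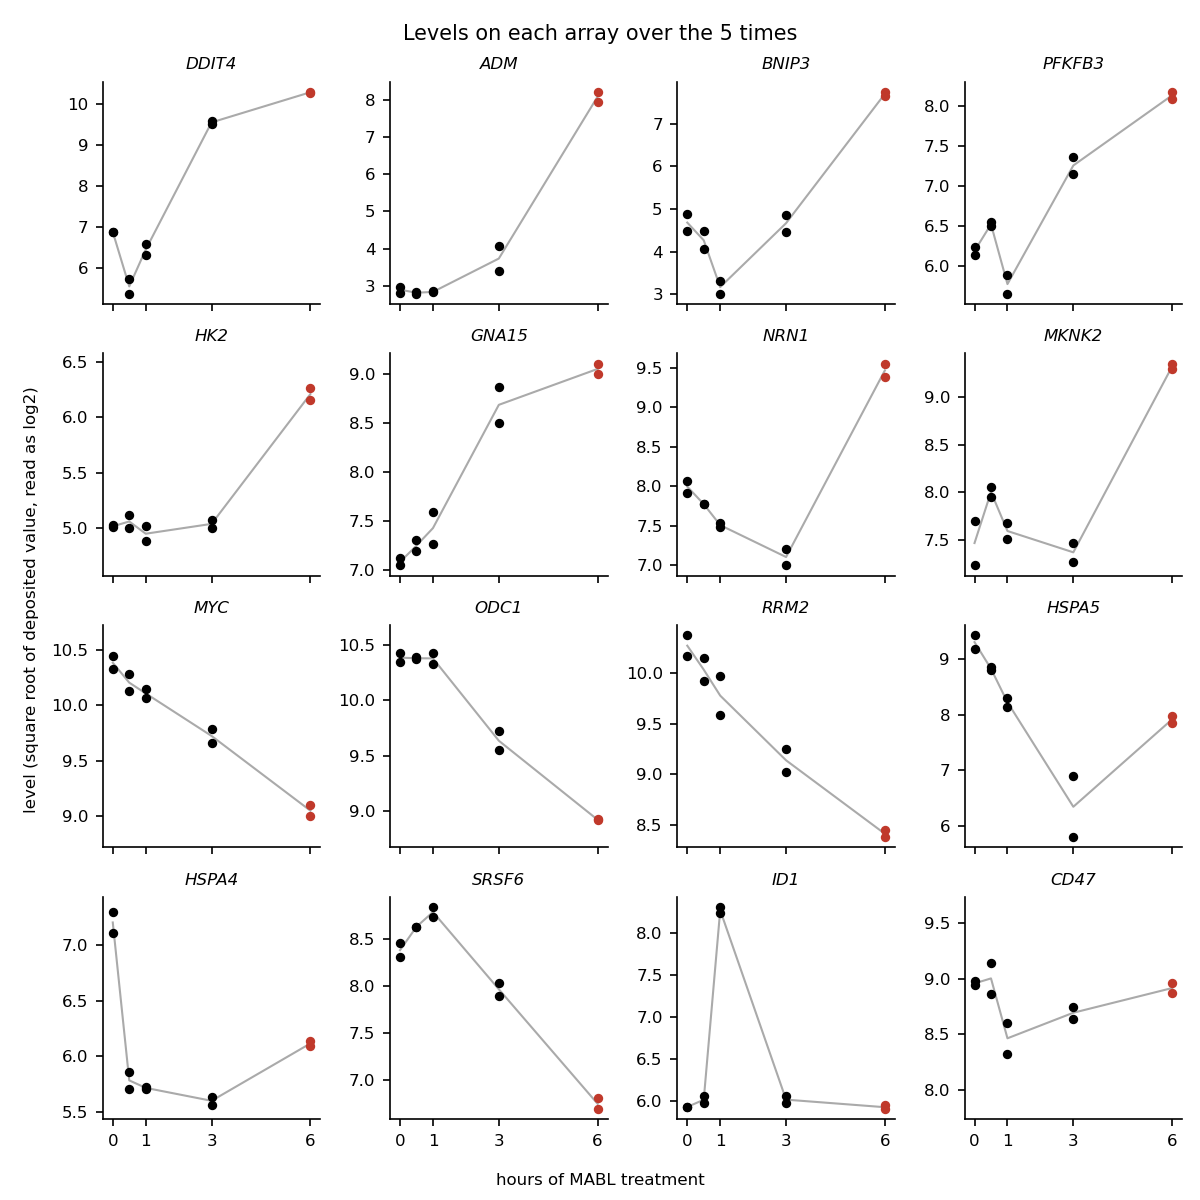
Level on each array (points) and mean (line) of 16 genes by hours with MABL (0, 0.5, 1, 3 and 6), with the 6 h arrays in red; each panel has its own vertical axis. ADM, BNIP3, HK2, NRN1 and MKNK2 rise between 3 h and 6 h, DDIT4 and GNA15 are up by 3 h, MYC, ODC1 and RRM2 come down in steps, and ID1 peaks at 1 h.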

How the data were processed

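The authors deposited 1 score per probe set and array, and the submitters' processing notes name GCRMA as the method; its version, the scale and any later step are not given in the sources used here. The scores ran from 1.25e-05 to 238.1, and their square roots, up to 15.43, were read as log2. The array is an Affymetrix human expression array with 22283 probe sets. After 68 control probe sets were left out, 4276 of 22215 passed the filter. Symbols came from the platform annotation, updated through RefSeq: 1 symbol was given to 19071 probe sets (current for 19059), several to 1043 and none to 2169, and genes were named only from those with 1.

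A linear model per probe set (R 4.3.3, limma 3.58.1, with eBayes moderation) had 1 mean for each time over all 10 arrays, which left 5 residual degrees of freedom. The routine was tested on simulated data. Alternatives were equal array medians, renewed quantile normalization, other filters and scales, a floor at 5, fewer arrays, a block for the replicate number, and 18S or spike-in levels as covariates. The deviations of same-numbered 6 h and 0 h arrays from their group means correlated at -0.0633. With so few arrays per time, this correlation cannot show whether replicate numbers pair the samples, and the labels do not say.

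Named were the 15 highest and 15 lowest called genes past the fold rule, ranked with the floor, up to 4 called members of each list with the largest test statistics, and a few genes whatever their values (CD47, HIF1A, BNIP3, BNIP3L, DDIT4, VEGFA, TXNIP, MYC, FOS, EGR1, HSPA5, ID1, ACTB and GAPDH); other genes are said to be chosen after their values were seen. Members, the 39 lists and the naming rule were chosen with earlier results of these data known.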

Additional observations from a re-analysis of the deposited data

Results flagged for a closer look

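Signals from outside the tested probe sets were higher on the 6 h arrays than on the 0 h arrays. The 18S ribosomal RNA probe sets had means of 11.68 ± 0.489 at 6 h and 9.10 ± 0.902 at 0 h (SD, n = 2 each), a difference of 2.585. The hybridization spike-ins, transcripts that are added in the laboratory, averaged 10.63 ± 0.0318 at 6 h and 10.00 ± 0.286 at 0 h, a difference of 0.6333. The poly-A spike-ins stood at 2.75 at 6 h and 2.74 at 0 h. As a measure of RNA integrity, the 3-prime and 5-prime probe sets lay 1.73 apart at 6 h and 1.60 at 0 h for ACTB and 0.31 at 6 h and 0.36 at 0 h for GAPDH.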

How the results depend on the processing

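The counts moved with the scaling and with single arrays. Against 174 probe sets called higher and 925 lower, equal array medians gave 613 and 603 and renewed quantile normalization gave 477 higher. With no filter 533 were lower. The 18S covariate gave 6 and 0, with 468 at an unadjusted p under 0.05, and the spike-in covariate gave 10 and 11, with 717. The fold rule gave 40 and 175. Without 1 of the 4 arrays, 77 to 140 were higher and 349 to 757 lower. Without 0 h replicate 1 the counts were 77 and 349, and without 6 h replicate 1 they were 106 and 428. Against 3 h, 214 higher and 89 lower became 325 and 201 with equal array medians. The rise of FOLR1 reversed to -0.79 with the 18S covariate. The cause of these shifts was not tested.

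With the replicate number as a block, 182 were higher and 955 lower. Of 128 called genes that were named, CD1A and CD6 lost their calls there (adjusted p = 0.0512 and 0.0531) and 126 did not. Under the other settings the named genes that lost a call numbered 123 with the 18S covariate, 117 with the spike-in covariate, 31 with no filter, 15 with equal array medians, 44 without 0 h replicate 1 and 33 without 6 h replicate 1. A score of 25 is the lowest level tested, so genes under it, such as most HIF-1 targets on the array, are not described beyond their levels.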

Other observations

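Genes outside the lists, chosen after their values were seen, also moved. PLIN2, a coat protein of lipid droplets, stood at 6.73 and 7.01 at 6 h and at 5.78 and 5.48 at 0 h and rose by 1.24 (SE 0.168, adjusted p = 0.00249). It had stood 0.65 below 0 h at 3 h. CLEC2B, a lectin of blood cells, was at 6.05 and 6.47 at 6 h and at 4.85 and 4.52 at 0 h and rose by 1.57 (adjusted p = 0.00486), by 1.26 when floored. EMP3, a small membrane protein, rose by 1.13 (adjusted p = 0.00298), with 6.89 and 6.64 at 6 h and 5.66 and 5.61 at 0 h. SAP30, a subunit of a histone deacetylase complex, stood at 8.63 and 8.63 at 6 h and at 7.61 and 7.53 at 0 h and rose by 1.06 (adjusted p = 0.000819), while its other probe set gave 0.22. SIT1, an inhibitory adaptor of lymphocytes, rose by 1.30 (adjusted p = 0.00065), and by at least 0.29 when floored.

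Enzymes and transporters outside the lists were among the falls. MAT2A, which makes the methyl donor S-adenosylmethionine, stood at 7.40 and 7.82 at 6 h and at 9.17 and 9.13 at 0 h and fell by 1.54 (SE 0.161, adjusted p = 0.001). CPT1A, the gate of fatty acid entry into mitochondria, was at 6.63 and 6.64 at 6 h and at 7.85 and 7.76 at 0 h and fell by 1.17 (SE 0.111, adjusted p = 0.000752). At 3 h CPT1A stood 0.25 below 0 h, and it fell by a further 0.92 to 6 h (adjusted p = 0.00381). The phosphate transporter SLC20A1 fell by 1.56 (adjusted p = 0.00289), the signal recognition receptor subunit SRPRB by 1.48 (0.00693) and the heterochromatin protein CBX5 by 1.47 (0.0241), whose other probe set changed by 0.05. SRPRB lost its call without 0 h replicate 1 (0.0539), and CBX5 without 0 h replicate 1 (0.155) or 6 h replicate 1 (0.146).

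Several genes were near their 0 h level at 6 h and far below it at 3 h. ANXA1, the phospholipid-binding protein annexin A1, stood at 8.03 and 8.12 at 6 h and at 8.13 and 7.79 at 0 h (change 0.11, adjusted p = 0.845), and was 2.09 higher at 6 h than at 3 h (adjusted p = 0.00978). DTL, a part of a ubiquitin ligase of S phase, was 1.83 higher at 6 h than at 3 h (0.00505), the chromatin protein DEK 1.48 higher (0.0188) and HSP90AA1, the inducible HSP90, 1.32 higher (0.00807). None of the 4 was called against 0 h, where they changed by 0.11, 0.16, -0.25 and -0.19.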
